A study of Drosophila melanogaster with 30 samples.

Results

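The 8 transcripts described here are those of genes known for their activity in the fat body, measured in dissected fly brains: fit, the yolk protein genes Yp1, Yp2 and Yp3, the larval storage protein gene Lsp2, the fat body protein genes Fbp1 and Fbp2, and the transferrin gene Tsf1. They were found by the gene symbol that the platform annotation pairs with each probe set, updated by gene number, and each had 1 probe set, so that 8 of 13966 probe sets tested and 8 of 10845 named genes are described. Brains came from virgin females of the wild-type strain Canton-S at 5 days of age, kept on cornmeal medium at 25 °C with 12 h of light. Every array held RNA of its own pool of 139 to 193 brains, dissected free of neighbouring tissue after the flies had been killed in hot water, and every group had 3 arrays of the Affymetrix Drosophila Genome 1.0 type. In the deprivation experiment (21 arrays) flies were kept awake by hand for 2, 4 or 6 h from ZT14, the hour at which consolidated sleep begins (ZT counts hours from lights-on), undisturbed sleeping flies were taken at the same hours, and undisturbed flies at ZT14 gave the 0 h point. The other 9 arrays make up the active period experiment, in which hand stimulation ran over the waking hours ZT10 to ZT14 and stimulated flies were set against undisturbed wake flies of ZT14 and undisturbed flies of ZT10. The labels name no transgene and no mutation.

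The fat body of an insect combines the work of liver and adipose tissue, and a layer of it lies in the head around the brain. Yolk proteins are made in the female fat body and in the follicle cells of the ovary, released into the haemolymph and taken up by growing oocytes, so their transcripts mark female fat body rather than neurons. fit encodes a small secreted protein of the female head fat body that is known from Drosophila to respond to feeding and to curb the appetite for protein. Lsp2 is a hexamerin that stores amino acids, Fbp1 is a fat body receptor for larval serum protein, Fbp2 is related to alcohol dehydrogenase, and Tsf1 is the iron carrier of the haemolymph.

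The median signal of an array was 4.88 to 4.96, and r between arrays of the same group was 0.974 to 0.997 over all probe sets. All values are log2 signals of the authors' RMA table, in which a difference of 1 unit is 2-fold. Deprived 2 h replicate 2 stood apart: its mean difference between the 3' and 5' ends of the actin and GAPDH controls was 2.53 log2 units, the largest of the deprivation experiment, and its mean over 9 neuronal markers was 5.72, against 6.25 to 6.99 on the other arrays of that experiment. Sleeping 6 h replicate 1 has a source name that reads deprived; the other labels of that array read sleeping, and it was treated so. Arrays are called replicates of a group because the submitters describe them as biological replications, and their number limits the precision of every value. In a pool of whole brains, fewer fat body cells and less RNA per fat body cell cannot be told apart.

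fit and the yolk protein transcripts varied far more between pools of 1 group than most transcripts did, while the other 4 did not. The within-group SD over the 21 deprivation arrays was 0.605 log2 units for fit, 0.596 for Yp1, 0.614 for Yp2 and 0.751 for Yp3, against a median of 0.122 over all probe sets. These SDs rank 23, 25, 22 and 8 among the 13966 probe sets. It was 0.135 for Lsp2, 0.129 for Fbp1, 0.149 for Fbp2 and 0.202 for Tsf1. On the 9 active period arrays the SD was 0.389 for fit and 0.449 to 0.487 for the yolk protein genes, against a median of 0.105. Fbp2, at 3.31 to 3.76, lay below the highest of 8 mouse and yeast control probe sets in 30 of 30 arrays. It was therefore not distinguishable from background, and its differences are not read as changes in expression.

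**Figure D1:**
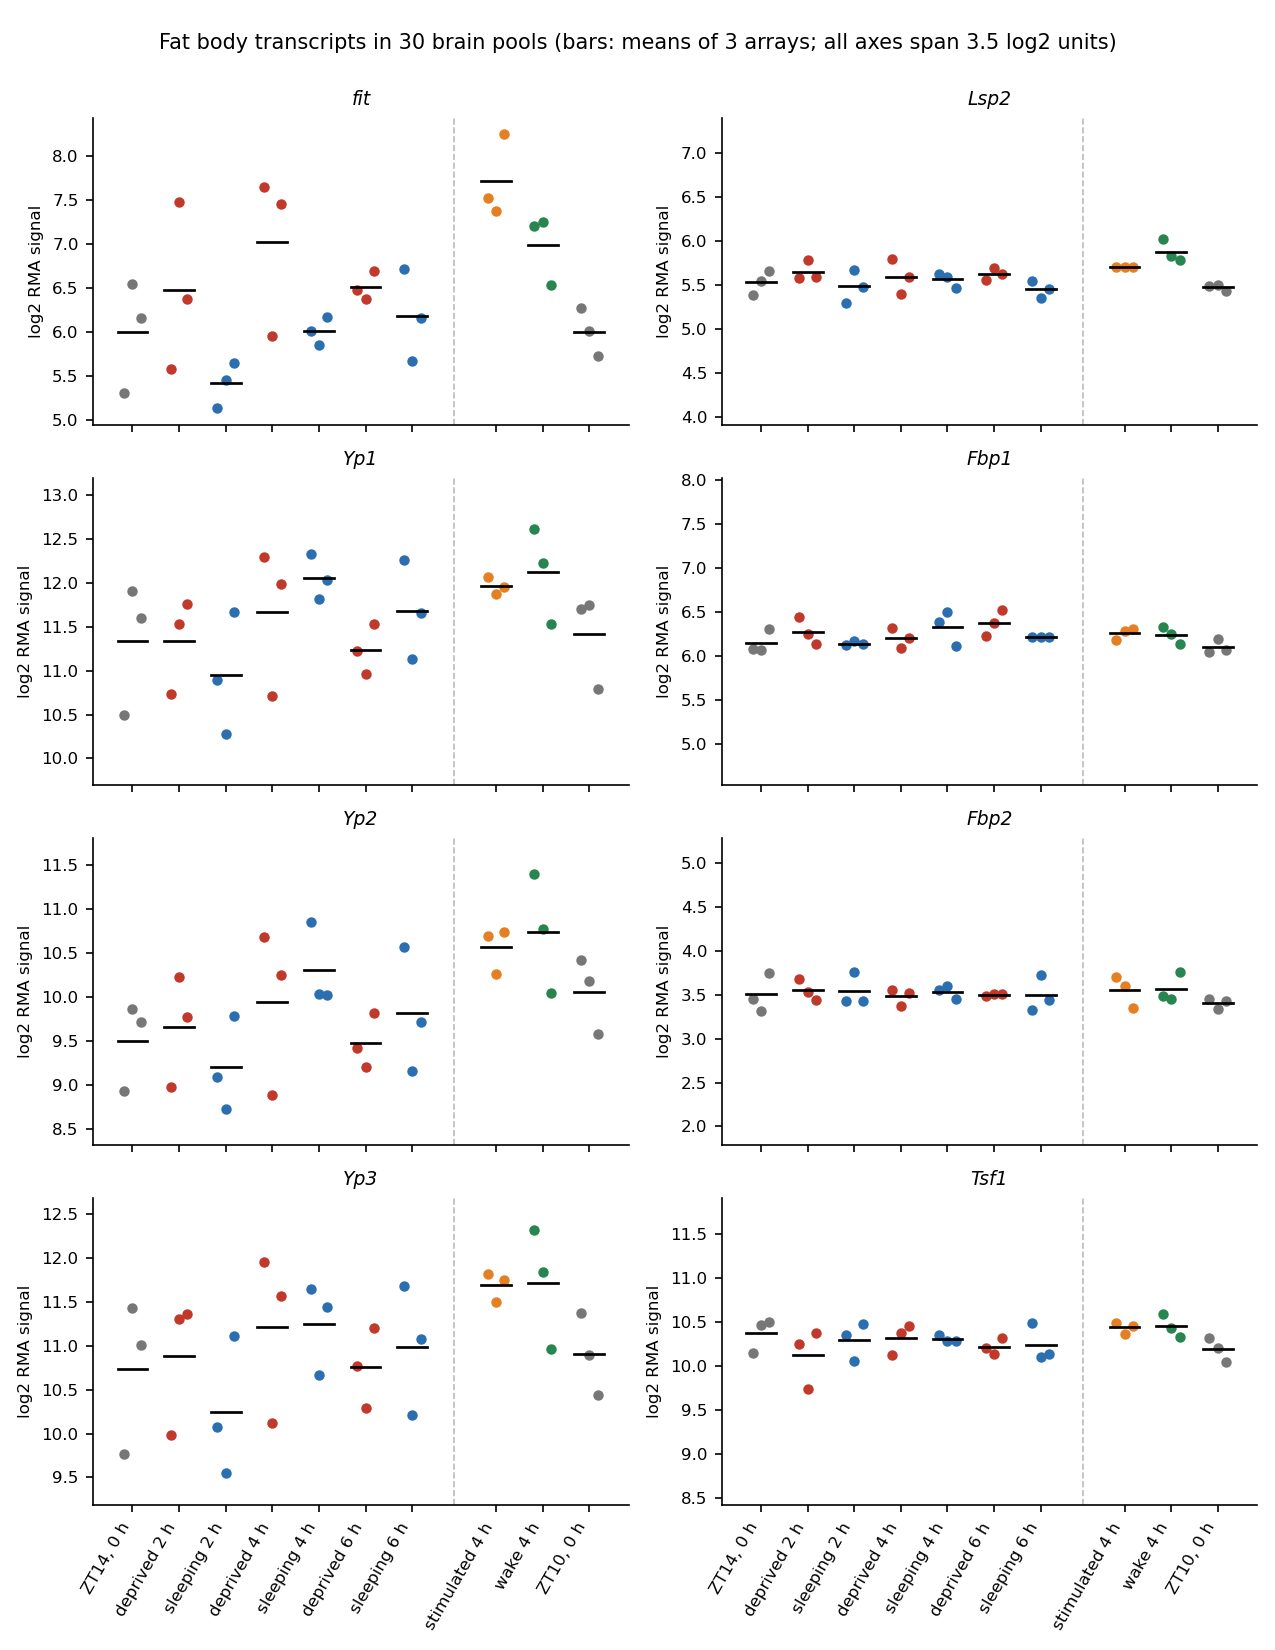
Log2 RMA signal (vertical axes, each spanning 3.5 units) of the 8 fat body transcripts in each of the 30 brain pools, by group along the horizontal axis; points are arrays, bars are means of 3 arrays, and the dashed line parts the deprivation experiment from the active period experiment. Points of fit, Yp1, Yp2 and Yp3 span 2.33 to 3.11 units, while those of Lsp2, Fbp1, Fbp2 and Tsf1 span 0.45 to 0.86.

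The yolk protein transcripts did not differ between deprived and sleeping brains beyond the spread between pools. At 2 h Yp1 was 10.74, 11.53 and 11.75 in deprived brains, against 10.90, 10.28 and 11.66 in sleeping brains. At 4 h it was 12.29, 10.71 and 11.99 in deprived brains, against 12.33, 11.81 and 12.03 in sleeping brains. At 6 h it was 11.22, 10.96 and 11.53 in deprived brains, against 12.26, 11.13 and 11.65 in sleeping brains. Groups overlapped at every hour, and 3 of 9 deprived arrays lay above the sleeping mean of their hour. As a mean over 2, 4 and 6 h the difference, deprived minus sleeping, was -0.15 log2 units for Yp1 (95% interval -0.65 to 0.36), -0.08 for Yp2 (-0.60 to 0.44) and 0.12 for Yp3 (-0.52 to 0.75), with limma adjusted p between 0.79 and 0.892. None of the 8 transcripts passed in this comparison, in which 0.924% of all probe sets did (129 of 13966, adjusted p below 0.05).

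Yolk protein levels also did not pass for a change with the hour in sleeping flies, except Yp1 with array weights. Yp1 was 10.50, 11.91 and 11.60 at ZT14, and 4 h later all 3 sleeping pools lay at 11.81 or higher. Relative to ZT14, Yp1 differed by -0.39, 0.72 and 0.34 log2 units at 2, 4 and 6 h of undisturbed sleep (F test over the 3 hours, adjusted p = 0.722). Its linear trend was 0.11 ± 0.0661 log2 units per h (SE; adjusted p = 0.739) in sleeping flies and 0.00 ± 0.0661 in deprived flies (adjusted p = 0.989). The trend in sleeping flies was 0.19 and passed with array weights (adjusted p = 0.0471), and was 0.00 with hybridisation run as a block (adjusted p = 1.0). In undisturbed flies hour and run were nearly tied. ZT14 arrays came from runs 3 and 5, and sleeping 2 h arrays from run 3. Sleeping 4 h arrays came from runs 1 and 2, and sleeping 6 h arrays from run 2. A trend with the hour and a difference between runs therefore cannot be told apart here. In sleeping flies 0.107% of probe sets had a trend that passed and none of the 8 did. In deprived flies it was 0.294%, and again none of the 8. With a covariate made of 16 other fat body markers, fit passed in deprived flies (0.16 log2 units per h, adjusted p = 0.00462). Both shares are of fits without weights or covariates. The shares with array weights or with this covariate are not given. The difference between both trends did not pass for any of the 8 either (0.0358% of probe sets).

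The highest difference of the 8 with deprivation was that of fit, and as fitted it did not pass. At 2 h fit was 5.58, 7.48 and 6.37 in deprived brains, against 5.14, 5.46 and 5.65 in sleeping brains. At 4 h it was 7.66, 5.96 and 7.45 in deprived brains, against 6.01, 5.85 and 6.17 in sleeping brains. At 6 h it was 6.48, 6.37 and 6.70 in deprived brains, against 6.71, 5.67 and 6.16 in sleeping brains. In each hour 1 array kept the groups from parting: a low deprived pool at 2 and 4 h, and a high sleeping pool at 6 h. fit lay above the sleeping mean of its hour in 8 of 9 deprived arrays and averaged 0.80 ± 0.245 log2 units higher in deprived brains (SE; 1.74-fold; 95% interval 0.29 to 1.315; unadjusted p = 0.00395; limma adjusted p = 0.149).

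By hour the fit difference was 1.06 at 2 h (adjusted p = 0.559), 1.01 at 4 h (adjusted p = 0.956) and 0.34 at 6 h (adjusted p = 0.662), each with an SE of 0.424. At these hours 0.00716%, 0.0143% and 0.0931% of all probe sets passed, and none of the 8. Leaving out 1 array at a time moved these values to 0.56 to 1.51 at 2 h (without deprived replicates 2 and 1), 0.69 to 1.54 at 4 h (without deprived replicates 1 and 2) and 0.08 to 0.60 at 6 h (without sleeping replicates 2 and 1). With run as a block they were 0.42, 1.38 and 1.07 at 2, 4 and 6 h. No run held both deprived and sleeping arrays of 2 h, or of 6 h. The blocked values of these hours therefore lean on arrays of other hours, and the order of the hourly values was not tested. The 6 h value was 0.053 once the 3' to 5' difference entered as a covariate. With array weights the 2 h (1.17, adjusted p = 0.0383) and 4 h (1.14, adjusted p = 0.0201) values passed. The shares of probe sets given above belong to the fit without weights. Without deprived 2 h replicate 2 the mean difference was 0.64 (adjusted p = 0.21). It passed without deprived 2 h replicate 1 (0.95, adjusted p = 0.041) or without deprived 4 h replicate 2 (0.98, adjusted p = 0.0354), the 2 deprived pools with the lowest fit, which also had the lowest yolk protein signal of the deprived pools. Hybridisation runs, taken from the date in the scanner files, held few arrays of the same hour. Within run 2 the difference at 4 h was 1.64 (1 deprived and 2 sleeping arrays), and run 3 held deprived arrays of 6 h and sleeping arrays of 2 h, so it gives no difference at a matched hour. Run 4 held deprived arrays only, and run 1 held only sleeping 4 h replicate 1. Within chip lot 2 the difference was 1.23 at 2 h (1 and 1 array), 0.63 at 4 h (2 and 1) and -0.23 at 6 h (1 and 1). Within chip lot 3 it was 0.98 at 2 h (2 and 2 arrays), 1.60 at 4 h (1 and 1) and 0.62 at 6 h (2 and 2). With run as a block the mean difference was 0.96 (adjusted p = 0.209). Every mean difference fitted with this block leans on arrays of other hours for its 2 h and 6 h parts. With arrays weighted by how closely they follow their group it was 0.84 and passed (adjusted p = 0.00871). Shares of all probe sets that passed with array weights are not given. The weighted calls of fit, for the mean or by hour, therefore cannot be set against such a share.

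In the deprivation experiment, pools with higher fit tended to have higher yolk protein signals, with exceptions. Sleeping 4 h replicate 1 had a yolk protein mean of 11.61, close to the highest of the 21 arrays (11.64), with fit at 6.01. Over the 21 deprivation arrays, Yp1 correlated with Yp2 (Pearson r = 0.954, Spearman rho = 0.929) and with Yp3 (r = 0.959, rho = 0.932), with permutation p = 1e-05, the smallest that the permutations can give, and adjusted p = 9.33e-05 for each. Leaving out the 2 arrays farthest from the median of Yp1 left r at 0.949 and 0.938, and within runs 2 and 3 r lay between 0.916 and 0.994. fit correlated with Yp3 (r = 0.749, rho = 0.777, permutation p = 9e-05 and 2e-05, adjusted 0.00056 and 0.00016) and with Yp1 (r = 0.612, rho = 0.581, permutation p = 0.0032 and 0.00679, adjusted 0.00779 and 0.0146). Without the 2 farthest arrays these r were 0.725 and 0.612, and within runs 2 and 3 they were 0.823 and 0.658 for Yp3, and 0.600 and 0.591 for Yp1. These are 4 of 14 relations computed in each of 2 experiments, and p-values were adjusted over all 56 tests. After each group's mean was subtracted, r was 0.836 between fit and Yp3 and 0.801 between fit and Yp1. Over the 9 active period arrays these relations were less clear. For Yp1 r was 0.666 and rho 0.65 (exact permutation test, adjusted p = 0.0653 and 0.0932). For Yp3 r was 0.779 and rho 0.7 (adjusted p = 0.0261 and 0.0653). Without the 2 farthest arrays r fell to 0.395 for Yp1 and 0.512 for Yp3.

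**Figure D2:**
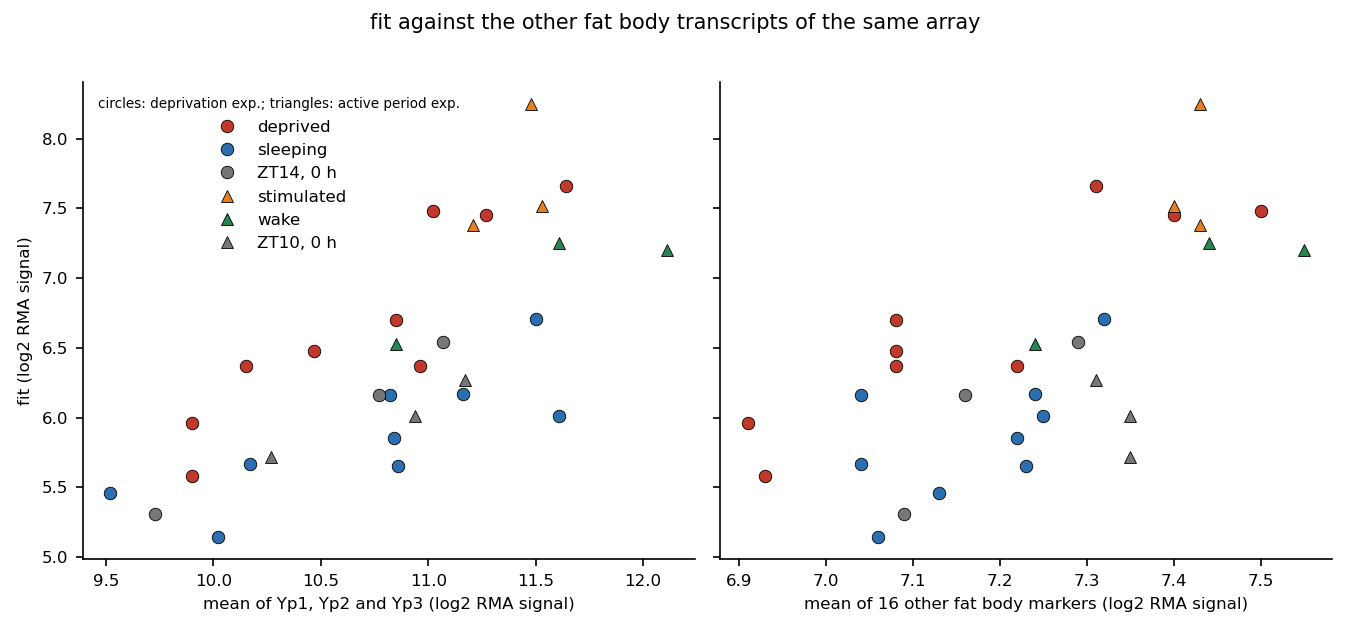
Log2 signal of fit (vertical axis) against the mean of Yp1, Yp2 and Yp3 (left) and against the mean of 16 other fat body markers (right), 1 point per array; circles are the deprivation experiment and triangles the active period experiment, coloured by condition. In the deprivation experiment fit tends to be higher where either mean is higher. This is less clear over the 9 active period arrays (r = 0.57 with the 16 markers, permutation test, adjusted p = 0.134). At a like yolk protein signal most deprived pools (red) lie above sleeping pools (blue) and stimulated pools (orange) above wake pools (green).

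The difference between fit and the yolk protein signal of the same pool parted deprived from sleeping pools at 4 and 6 h, while fit itself overlapped. Only differences of this value between arrays are read, since signals of different probe sets have no common scale. At 2 h, fit minus the yolk protein mean was -4.59 to -3.54 in deprived brains, against -5.21 to -4.06 in sleeping brains. At 4 h it was -3.99 to -3.81 in deprived brains, against -5.60 to -4.98 in sleeping brains. At 6 h it was -4.16 to -3.78 in deprived brains, against -4.79 to -4.50 in sleeping brains. At 2 h the groups overlapped, and at 4 and 6 h every deprived pool lay above every sleeping pool. The yolk protein mean itself was lower in deprived than in sleeping pools at 4 h (10.94, against 11.20) and at 6 h (10.49, against 10.83). Part of the gap therefore comes from the yolk protein signal. The share of all probe sets that part when set against the yolk protein mean was not computed.

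A related but different question was put to all probe sets by fits with a covariate, and there fit passed as a mean over the hours. These fits do not give the share of probe sets that part when set against the yolk protein mean. With the mean of 16 other fat body markers as a covariate (none of the 8 among them), fit was 0.80 ± 0.0915 log2 units higher in deprived than in sleeping brains (SE; 1.75-fold; limma adjusted p = 9.22e-05). In that fit 1.39% of all probe sets passed. The estimate was as large as without the covariate (0.80), and its SE fell to 0.0915, against 0.245. By hour it was 0.80 at 2 h (adjusted p = 0.187), 1.11 at 4 h (adjusted p = 0.00459; 0.158% of probe sets passed) and 0.51 at 6 h (adjusted p = 0.146). Leaving out each of the 18 deprived or sleeping arrays in turn gave 0.76 to 0.85, with adjusted p between 6.32e-05 and 0.000412. With run as a block as well it was 0.86 (adjusted p = 0.00155), and with the 3' to 5' difference as a second covariate 0.78 (adjusted p = 0.000527).

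A covariate made of the yolk protein mean, added after the data were seen, gave 0.83 ± 0.136 for fit (adjusted p = 0.00383; 1.08% of probe sets passed). Leaving out 1 array at a time gave 0.71 to 0.93, with adjusted p between 0.000756 and 0.0137, and the run block gave 0.90 (adjusted p = 0.0336). Yp1, Yp2 and Yp3 did not pass with the other fat body markers as a covariate (adjusted p between 0.687 and 0.808). The 16 markers themselves averaged 6.93 to 7.50 in deprived 2 h pools, 6.91 to 7.40 in deprived 4 h pools and 7.08 in all 3 deprived 6 h pools, against 7.06 to 7.23, 7.22 to 7.25 and 7.04 to 7.32 in sleeping pools of those hours. These ranges overlap at every hour, and fit tracked the marker mean within groups, with r = 0.937 after the group means were subtracted. Before that, r was 0.674 and rho 0.595 (permutation p = 0.00076 and 0.00515, adjusted 0.00218 and 0.012), with 0.828 within run 2, 0.342 within run 3 and 0.624 without the 2 farthest arrays. The 16 markers were unlike each other: over the 21 arrays r with the yolk protein mean ran from -0.02 (Npc2b) to 0.82 (Sodh1). AkhR and Gnmt, with mean signals of 2.90 and 3.98, lay within the range of the mouse and yeast controls (2.18 to 4.27). Mtp, among the genes most like fit after the group means were subtracted (r = 0.924), is 1 of the 16. A covariate taken from the same arrays cannot tell how much fat body was left on the brains from how active that fat body was.

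**Figure D3:**
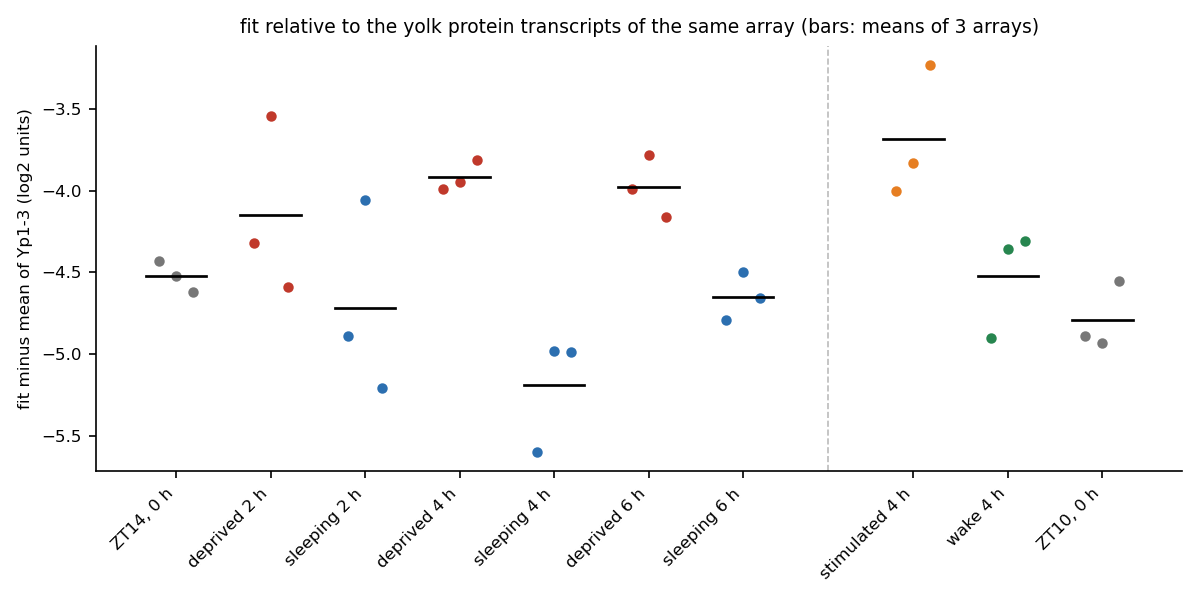
fit minus the mean of Yp1, Yp2 and Yp3 of the same array (vertical axis, log2 units) by group; points are arrays, bars are means of 3 arrays, and the dashed line parts the experiments. Deprived pools lie between -4.16 and -3.78 at 4 and 6 h, above all sleeping pools of those hours, and stimulated pools lie between -4.00 and -3.23, above all wake pools.

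The transcripts of storage and transport proteins did not pass with deprivation. Lsp2 was 5.56, 5.69 and 5.63 in deprived brains at 6 h, against 5.54, 5.35 and 5.46 in sleeping brains, with no overlap. At 4 h it was 5.79, 5.40 and 5.59 in deprived brains, against 5.63, 5.60 and 5.46 in sleeping brains, with overlap. As a mean over the 3 hours Lsp2 differed by 0.13 ± 0.0618 log2 units (SE; adjusted p = 0.359) and lay above the sleeping mean in 8 of 9 deprived arrays. Tsf1 differed by -0.06 (95% interval -0.24 to 0.12; adjusted p = 0.74), with 9.73 in deprived 2 h replicate 2 as its lowest value and 10.06 to 10.50 over the undisturbed pools of the deprivation experiment. Fbp1 differed by 0.06 (adjusted p = 0.67), and at 6 h it was 6.23, 6.37 and 6.52 in deprived brains, against 6.22, 6.21 and 6.22 in sleeping brains. Lsp2 and Fbp1 were the 2 of 8 transcripts whose deprived pools all lay above the sleeping pools at 6 h, as did 15.4% of all probe sets; neither passed the test (adjusted p = 0.372 and 0.412). None of the 8 did so at 2 h (7.15% of all probe sets) or at 4 h (3.44%).

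In the active period experiment, stimulation was accompanied by higher fit than in wake flies of the same hour, without passing the test. fit was 7.52, 7.38 and 8.25 in stimulated brains, against 7.20, 7.25 and 6.53 in wake brains. The groups did not overlap, as for 6.77% of all probe sets in this direction, and the lowest stimulated pool (7.38) was close to the highest wake pool (7.25). The difference was 0.72 ± 0.215 log2 units (SE; 1.65-fold; unadjusted p = 0.00455; limma adjusted p = 0.507), in a comparison in which 0.0859% of probe sets passed. It was 0.46 without stimulated replicate 3 and 0.49 without wake replicate 3, and up to 0.89 without another array. With the yolk protein mean as a covariate it was 0.79 ± 0.159 (adjusted p = 0.108), and with the other fat body markers 0.70 ± 0.193 (adjusted p = 0.316).

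The yolk protein genes did not differ between stimulated and wake brains beyond the spread between pools. Yp1 was 12.06, 11.88 and 11.95 in stimulated brains, against 12.61, 12.22 and 11.53 in wake brains, and stimulated pools lay inside the wake range. Stimulated minus wake was -0.16 for Yp1, -0.17 for Yp2 and -0.02 for Yp3 (adjusted p 0.918 to 0.994). fit minus the yolk protein mean was -4.00 to -3.23 in stimulated brains, against -4.91 to -4.31 in wake brains, with no overlap. The share of all probe sets that part in this way was not computed. Lsp2 was 5.70 in all 3 stimulated pools, against 6.02, 5.83 and 5.79 in wake pools, a difference of -0.18 ± 0.078 (adjusted p = 0.701) with no overlap, as for 5.75% of all probe sets in this direction. The fit difference at 4 h of deprivation exceeded that of stimulation by 0.29 log2 units (95% interval -0.86 to 1.44; adjusted p = 1.0), so a wide range of differences between both is left by these arrays; of all probe sets 0.0% passed and 246 had an unadjusted p below 0.05.

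Between ZT10 and ZT14 of the undisturbed day, all 8 transcripts had a higher mean at ZT14, and none passed. Fbp2, at background level, was among them (0.16 log2 units). The share of all probe sets with a higher mean at ZT14 was not computed, and their median difference was 0.017. Other fat body markers were mixed: 9 of 16 were higher at ZT14 (median 0.093, range -0.43 to 0.56). The smallest p of that list was for a lower value, that of the perilipin gene Lsd-1 (-0.43, limma adjusted p = 0.0674). fit was 7.20, 7.25 and 6.53 in wake brains at ZT14, against 6.27, 6.01 and 5.72 at ZT10. Yp1 was 12.61, 12.22 and 11.53 in wake brains at ZT14, against 11.71, 11.74 and 10.79 at ZT10. Lsp2 was 6.02, 5.83 and 5.79 in wake brains, against 5.49, 5.50 and 5.43 at ZT10. The groups of fit and Lsp2 did not overlap, and those of Yp1 did, through wake replicate 3.

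The difference, wake minus ZT10, was 0.99 ± 0.215 for fit (SE; 1.99-fold; adjusted p = 0.119) and 0.41 ± 0.078 for Lsp2 (1.33-fold; adjusted p = 0.092). It was 0.71 for Yp1, 0.68 for Yp2 and 0.80 for Yp3 (1.60- to 1.75-fold; adjusted p 0.326 to 0.374) and 0.26 for Tsf1 (adjusted p = 0.351). Wake pools all lay above ZT10 pools for 4 of the 8 (fit, Lsp2, Tsf1 and Fbp2, the last at background level) and for 8.76% of all probe sets. Of all probe sets 0.0644% passed, all of them lower at ZT14. Once the 3' to 5' difference entered as a covariate, fit (0.99, adjusted p = 0.0441) and Lsp2 (0.41, adjusted p = 0.0311) passed, with 0.408% of all probe sets. With the other fat body markers as a covariate the differences were 0.83 for fit, 0.36 for Lsp2 and 0.40 to 0.52 for the yolk protein genes, with adjusted p of 0.192 or more. Wake replicate 1, which had the highest Yp1, was the only array of its chip lot, and the Yp1 difference was 0.46 without it, 0.40 without ZT10 replicate 3 and 1.00 without wake replicate 3.

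Stimulated brains of ZT14, set against ZT10 in a comparison added after the data were seen, gave the only call among the 8 in fits of all arrays with equal weights and no covariate. fit rose, with 7.52, 7.38 and 8.25 in stimulated brains, against 6.27, 6.01 and 5.72 at ZT10, a difference of 1.71 ± 0.215 log2 units (SE; 3.28-fold; limma adjusted p = 0.00234). Of all probe sets 0.251% passed. Leaving out each array in turn gave adjusted p between 0.00462 and 0.0144, while a fit of all 30 arrays gave 0.0932 and trended, robust variances gave 0.112. fit, Yp1, Yp3, Lsp2 and Tsf1 did not overlap (5 of 8, all higher in stimulated brains; 10.0% of all probe sets), and the last 4 did not pass (adjusted p 0.334 to 0.483). This comparison shares its ZT10 arrays with the one before and its stimulated arrays with the one before that. Its groups differ in both the hour of day and the stimulation, which cannot be told apart in it.

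**Figure D4:**
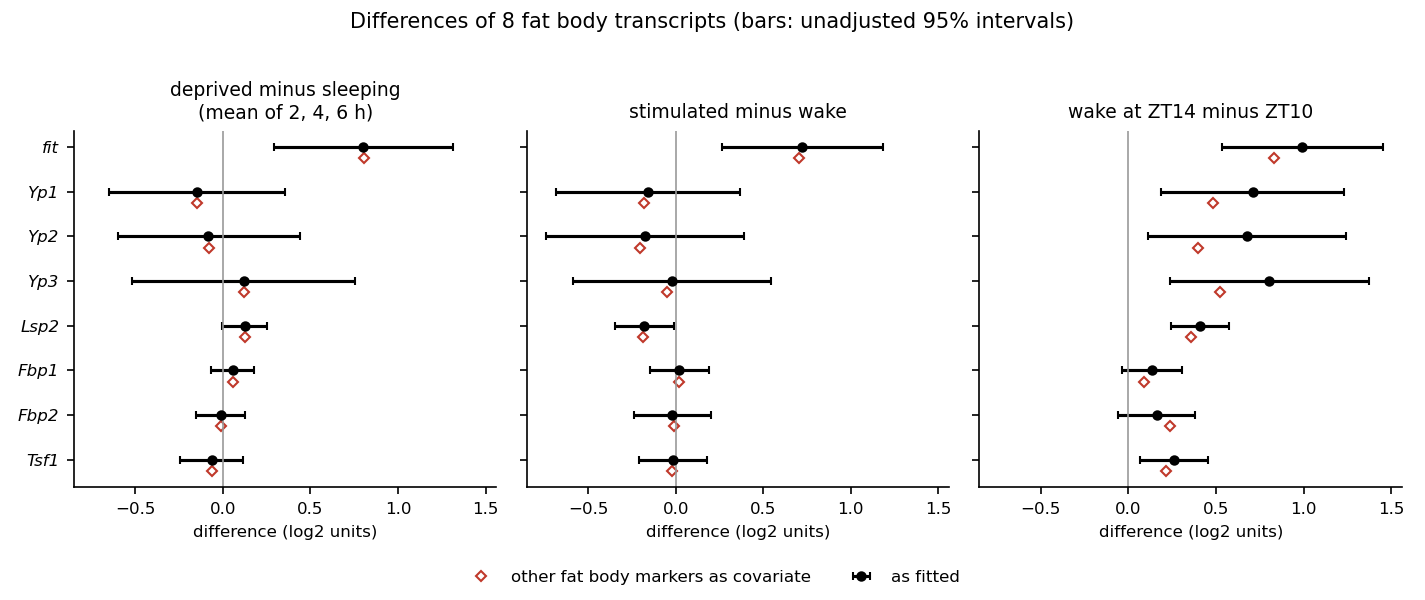
Differences in log2 units (horizontal axes) of the 8 fat body transcripts (rows) for deprived minus sleeping as a mean of 2, 4 and 6 h, stimulated minus wake, and wake at ZT14 minus ZT10; black points and bars are estimates with unadjusted 95% intervals, and open red diamonds are estimates with the other fat body markers as a covariate. fit is positive in all 3 panels (0.80, 0.72 and 0.99), while the yolk protein genes lie near 0 in the first 2 and at 0.68 to 0.80 in the last.

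Undisturbed flies of ZT14 were sampled in both experiments, and their levels are given side by side without a comparison, because the arrays were run apart and a common normalization is not stated. fit was 7.20, 7.25 and 6.53 in the wake group, and 5.31, 6.54 and 6.16 in the ZT14 group of the deprivation experiment. Yp1 was 12.61, 12.22 and 11.53 in the wake group, and 10.50, 11.91 and 11.60 in the ZT14 group. Within the deprivation experiment the mean of fit was lowest in sleeping 2 h brains (5.41), followed by ZT14 (6.00), sleeping 4 h (6.01), sleeping 6 h (6.18), deprived 2 h (6.48), deprived 6 h (6.52) and deprived 4 h brains (7.02), and every pair of neighbours in this order overlapped. Within the active period experiment the order was ZT10 (6.00), wake (6.995) and stimulated (7.72), and neighbours did not overlap.

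Tsf1 and Lsp2 were set against Yp1 and fit in each experiment. Over the 9 active period arrays, Tsf1 correlated with Yp1 (r = 0.927, rho = 0.883, exact permutation p = 0.000653 and 0.00308, adjusted 0.00218 and 0.00779). Without the 2 farthest arrays r was 0.686. Over the 21 deprivation arrays the same relation had r = 0.337 and rho = 0.392 (permutation p = 0.134 and 0.0805, adjusted 0.16 and 0.107), with 0.283 within run 2 and 0.862 within run 3. Lsp2 and Yp1 had r = 0.791 and rho = 0.733 over the 9 active period arrays (exact permutation p = 0.0116 and 0.0311, adjusted 0.0233 and 0.0513), and r was 0.411 without the 2 farthest arrays, so the relation rests on those. Over the 21 deprivation arrays r was 0.311 (permutation p = 0.17, adjusted 0.194). Lsp2 correlated with fit over the 21 arrays (r = 0.658, rho = 0.503, permutation p = 0.00116 and 0.0217, adjusted 0.00309 and 0.0368), and r was 0.46 without the 2 farthest arrays. The difference between experiments in these correlations was not tested.

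The probe sets most like fit over the 21 deprivation arrays were CG3597 (r = 0.890), CG5171 (0.882), the cytochrome P450 gene Cyp9b2 (0.871), the chitinase-like growth factor gene Idgf1 (0.870), CG6415 (0.859) and CG5493 (0.853). Over the 9 active period arrays r with fit was 0.008 for CG3597, 0.689 for CG5171, 0.548 for Cyp9b2, 0.919 for Idgf1, 0.929 for CG6415 and 0.907 for CG5493, the lowest being that of CG3597. Idgf1 had a mean signal of 3.42, within the range of the mouse and yeast controls (2.18 to 4.27). After the group means were subtracted, the 6 most like fit were CG5493 (0.949), the odorant-binding protein gene Obp99c (0.939), CG3597 (0.935), the lipid transfer protein gene Mtp (0.924), Ance-5 (0.924), of the angiotensin-converting enzyme family, and CG2736 (0.923). Of these, Obp99c had r = -0.11 with fit over the 9 active period arrays, CG2736 0.556, and Mtp and Ance-5 0.785 each.

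Most like the yolk protein mean were Cyt-b5-r (r = 0.886), which encodes a cytochrome b5-related protein, CG2233 (0.869), CG3597 (0.865), CtsK2 (0.841), the chitinase-like Idgf6 (0.828) and P5CS (0.822), a proline synthesis enzyme. After the group means were subtracted they were Cyt-b5-r (0.924), CG5618 (0.900), the folate enzyme gene pug (0.898), CG3597 (0.897), Cyp9b2 (0.895) and CG7560 (0.878). Over the 9 active period arrays, r with the yolk protein mean was 0.747 for Cyt-b5-r, 0.913 for pug and -0.09 for CG5618. These genes were picked for their r, which is therefore a description. Of them, CG7560 had a mean signal of 3.81, within the range of the mouse and yeast controls (2.18 to 4.27).

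Other genes of fat body, yolk and nutrient pathways showed few differences that passed. Of 24 other fat body markers listed, 16 were measured, none passed with deprivation, and 8 had a positive difference (median -0.02, against 0.01 over all probe sets). The smallest p-values were those of Gnmt, a methyl group enzyme (0.29, adjusted p = 0.145), the catalase gene Cat (-0.15, adjusted p = 0.281), the triglyceride lipase gene bmm (0.15, adjusted p = 0.282) and apolpp, which encodes the lipid carrier lipophorin (-0.27, adjusted p = 0.305). In stimulated minus ZT10 brains 1 of the 16 passed, as did 0.251% of all probe sets. It was Lsd-1, a perilipin gene of lipid droplets that is named here after its value was seen. Lsd-1 fell by 0.61 log2 units (adjusted p = 0.00234). Of 12 measured genes of yolk uptake and its control, none passed and 5 were positive; the juvenile hormone hydrolase gene Jheh2 (-0.17, adjusted p = 0.231), the sex determination gene tra (-0.20, adjusted p = 0.237) and the juvenile hormone receptor gene Met (-0.20, adjusted p = 0.37) had the smallest p-values. Of 11 genes of iron handling none passed and 4 were positive, with Irp-1A, an iron regulatory protein, at -0.17 (adjusted p = 0.242).

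Among 18 measured genes of feeding and nutrient signalling, 1 rose with deprivation, none fell and 13 were positive (median 0.05). Of all probe sets 0.924% passed in this comparison, with a median difference of 0.01. Lip4, a lipase gene, was higher by 0.32 ± 0.0645 log2 units (SE; adjusted p = 0.0189). The activin-like ligand gene daw followed (0.27, adjusted p = 0.22). In sleeping flies InR, the insulin receptor gene, had the smallest p of this list for a trend over the night (0.065 log2 units per h, adjusted p = 0.379). In the list of sex-specific head fat genes, 6 of 8 were measured and 4 of those are fit and the yolk protein genes; the other two, sxe2 (0.05, adjusted p = 0.653) and Obp99b (0.16, adjusted p = 0.718), did not pass. No gene of these 5 lists passed for a trend over the night in sleeping flies.

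Markers of other tissues were measured beside these results, and their part in them was not tested. As a description, the array mean of 10 haemocyte markers correlated with the yolk protein mean over the 21 arrays with r = 0.784, close to the 0.731 of the other fat body markers, while r was 0.378 for 10 glial, 0.053 for 9 neuronal, -0.01 for 12 muscle, 0.047 for 14 cuticle and trachea, -0.12 for 12 ovary and -0.40 for 11 antennal markers. Over the 9 active period arrays the mean of the 12 ovary markers had r = 0.676 with the yolk protein mean and 0.835 with fit. It was 5.25 to 5.31 in stimulated, 5.24 to 5.32 in wake and 5.15 to 5.21 in ZT10 pools, and 11 of 12 had a positive sign in wake minus ZT10 (median 0.11, none passed). With deprivation 1 of 14 cuticle and trachea markers rose (the chitinase gene Cht5, 0.20, adjusted p = 0.0339) and 1 of 12 ovary markers (the eggshell gene dec, 0.20, adjusted p = 0.0428). No neuronal, glial, haemocyte or muscle marker passed, and 0.924% of all probe sets did. The share of all probe sets with a positive sign was not computed in any comparison. Signs of markers of the same list are not taken as independent. A positive sign was seen in 1 of 9 neuronal markers (median -0.21), 10 of 12 muscle markers (median 0.10) and 11 of 12 ovary markers (median 0.066). The deprivation difference had a positive sign in 11 of 11 antennal markers (median 0.18, none passed) and a negative sign in 7 of 7 photoreceptor markers (median -0.32, none passed). The antennal mean was 4.93 to 5.15 in deprived brains at 6 h, against 4.40 to 4.71 in sleeping brains, and 4.54 to 5.14 in deprived brains at 4 h, against 4.40 to 4.74 in sleeping brains. In the active period experiment it was 4.81 to 5.50 in stimulated, 4.53 to 4.80 in wake and 4.86 to 5.25 in ZT10 pools, with 11 of 11 markers higher in stimulated than in wake brains (median 0.51) and 0 of 11 higher in wake than in ZT10 brains (median -0.29). fit had a positive difference in both of these comparisons, and how it relates to the antennal markers was not tested. With the mean of the muscle, cuticle and antennal lists as a covariate, the fit difference with deprivation was 0.65 (adjusted p = 0.492) and that with stimulation 1.00 (adjusted p = 0.634).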

How the data were processed

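Expression was measured on 30 arrays of 10 groups. The authors deposited log2 signals made by RMA (background correction, quantile normalisation, 1 summary value for each probe set), per the labels and the design text. affy and RMA are named, without versions, per the submitters' processing notes. Quantile normalisation hides a shift shared by most transcripts. Of 14010 probe sets, 44 controls were left out. The platform annotation gave 12443 probe sets 1 symbol, 12394 of them updated through gene numbers in RefSeq's Release 6 plus ISO1 MT table, used for names only. Chip lots (4) and hybridisation runs (5, deprivation experiment only) came from the deposited scanner settings.

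limma 3.58.1 (R 4.3.3) was fitted to 1 mean per group within each experiment, with Benjamini and Hochberg adjustment over 13966 probe sets and a threshold of 0.05. Correlations used permutation tests, two-sided, in Python 3.11.15 with scipy 1.17.1. The 8 transcripts and the gene lists were chosen with earlier results of these data known. Text names all 8, up to 4 genes per list by p and 6 most alike by r; the brightest probe set stands for a gene. On simulated data a change of 0.5 log2 units was recovered in 96.5% of 200 probe sets for the mean deprivation difference and in 57.5% for stimulation, and a change of 1 in 100% and 98.5%. This holds for probe sets of typical spread and not for fit or the yolk protein genes, whose spread was several times larger. Alternatives covered filters, normalisation, samples fitted, array weights, variances, blocks, covariates, thresholds and the omission of each array.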

Additional observations from a re-analysis of the deposited data

Results flagged for a closer look

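Fbp1 was picked out because all 3 deprived pools moved one way at 4 h and the other way at 6 h relative to the sleeping mean of the hour. At 4 h it was 6.32, 6.09 and 6.20 in deprived brains, against a sleeping mean of 6.33, and at 6 h 6.23, 6.37 and 6.52 in deprived brains, against 6.22 in sleeping brains. The 4 h difference minus the 6 h difference was -0.28 log2 units, and this difference was not tested.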

How the results depend on the processing

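Of the 8 transcripts, none passed in the mean deprivation difference as fitted, and 1 (fit) passed with array weights (0.84, adjusted p = 0.00871) and with the other fat body markers as a covariate; leaving out 1 array at a time gave 0 to 1. At 2 h, 1 passed with array weights (fit, 1.17, adjusted p = 0.0383). At 4 h, 1 passed with array weights (fit, 1.14, adjusted p = 0.0201) and with the other fat body markers. The trend in sleeping flies gave 1 (Yp1) with array weights, and that in deprived flies 1 (fit) with the other fat body markers. Wake minus ZT10 gave 2 (fit and Lsp2) with the 3' to 5' control covariate and 1 (Lsp2) at a threshold of 0.1. Stimulated minus ZT10, 1 as fitted, gave 0 with all 30 arrays in 1 fit and 0 with trended, robust variances. The causes of these changes were not tested. Shares of all probe sets that passed are not given for array weights, for single omissions or for the 0.1 threshold. They are also not given for the trend in deprived flies with a covariate. The fit difference at 4 h of deprivation minus that of stimulation turned to -0.029 without deprived 4 h replicate 1 (range -0.029 to 0.82 over single omissions). The mean fit difference ranged from 0.64 to 0.98 over single omissions and was 0.66 with the 3' to 5' covariate (adjusted p = 0.308). Same-numbered arrays correlated between -0.38 and 0.439, so replicate numbers were not taken as pairs; with the replicate block the fit difference stayed 0.80 (adjusted p = 0.179), 0 of 8 passed in it and 1 of 8 in stimulated minus ZT10. Array number limits all values, and Fbp2 was not above background.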
